A study of Mus musculus with 3 samples.

Results

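Inhibitory checkpoint receptors are surface proteins that restrain lymphocytes after they have been activated. The transcripts of 6 such receptors were followed in tumor-infiltrating lymphocytes (TILs), across natural killer (NK) cells, the innate lymphoid cell (ILC)-like cells among them, and 3 kinds of T cell. The members were chosen by gene symbol: *Pdcd1*, *Ctla4*, *Lag3*, *Havcr2*, *Cd160* and *Klrg1*, 6 of the 32285 genes in the count matrices. All of them were detected in each of the 5 classes of cell.

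Most checkpoint receptors appear on T cells after antigen receptor signaling and persist in the T cells of chronically antigen-exposed tissue such as tumors, where several are found on the same cell. *Pdcd1* encodes PD-1, which binds PD-L1 and PD-L2 and recruits the phosphatase SHP-2 to dampen antigen receptor and CD28 signaling. *Ctla4* encodes a receptor that competes with CD28 for CD80 and CD86 and is needed for regulatory T cell (Treg) function. *Lag3* encodes a relative of CD4 that binds MHC class II, and *Havcr2* encodes TIM-3, a receptor for ligands that include galectin-9. *Cd160* encodes a receptor for the TNF receptor family member HVEM and is long known from NK cells and CD8 T cells, while *Klrg1* encodes a lectin-like receptor for cadherins that marks mature NK cells, short-lived effector T cells and a subset of Tregs.

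The cells came from subcutaneous tumors of MC38-Ova, a mouse colon carcinoma line that carries ovalbumin, grown in WT C57BL/6 Kaede mice treated with an isotype control antibody, and were profiled by droplet-based 3' scRNA-seq. Kaede is a fluorescent protein that turns from green to red under violet light. Tumors started from 250000 injected cells were photoconverted on day 13 and taken on day 15, 48 h later, so that Kaede-red (KR+) cells had been in the tumor at photoconversion and Kaede-green (KG+) cells had arrived since. The study sorted live CD45+ TER119- cells by color and left out CD11b+ NK1.1- cells. Every group shared the genotype, the tumor line and the isotype treatment, and there was no untreated group. There were 2 KG+ libraries, labeled as biological replicates, and 1 KR+ library. The sources used here give neither the number of mice behind a library, nor the age of these particular mice (the study states 1 range for the whole project), nor whether the KR+ cells came from the tumors of a KG+ library. The fits below include the library, so their p-values measure how evenly class differences held over 3 libraries of both colors. Fits without 1 of the libraries rest on the other 2, so their p-values say little about the spread between libraries. Such a p-value, even a smaller one, is not a stronger result than one over 3 libraries. The spread between mice is not known.

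After the filters on cell quality, the libraries Kaede-green 1, Kaede-green 2 and Kaede-red, given in this order throughout, held 10000, 11078 and 10865 cells, with medians of 6628, 8513 and 12076 UMIs (unique transcript molecules) per cell. Kaede-red was the deepest library and its NK cells were the deepest class, with a median of 17234 UMIs against 6132 and 8184 in the KG+ libraries, so levels are given as CPM, the UMIs of a gene in a class scaled to all UMIs of that class, and shares of cells after every cell was thinned to 2000 UMIs. NK cells had at least 1 *Ncr1* and at most 1 *Cd3e* UMI, and ILC-like cells were the NK cells with at least 2 *Rora* and 0 *Eomes* UMIs. T cells had at least 2 *Cd3e* UMIs together with at least 1 *Cd8a* and 1 *Cd8b1* UMI (CD8 T cells), with at least 1 *Cd4* and 0 *Foxp3* UMIs (CD4 T cells), or with at least 1 *Foxp3* UMI (Tregs). There were 2608, 2676 and 3175 NK cells, 94, 161 and 252 of them ILC-like. The T cells comprised 2430, 3476 and 4261 CD8 T cells, 474, 564 and 313 CD4 T cells, and 465, 923 and 881 Tregs. Between 17 and 27 cell barcodes were shared by any pair of libraries.

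Markers not used by the gates set NK apart from CD8 T cells, Tregs from CD4 T cells and ILC-like from other NK cells. Summed over 5 T cell genes, the level was 324 to 467 CPM in NK cells against 4527 to 5139 in CD8 T cells. Summed over 5 Treg genes, it was 4267 to 5137 in Tregs against 1468 to 2042 in CD4 T cells. Summed over 5 ILC genes, it was 557 to 696 in ILC-like cells against 75.8 to 122 in the other NK cells. The ILC sum did not set ILC-like cells apart from T cells (531 to 643 in CD8 T and 573 to 683 in CD4 T cells). ILC-like cells also lay above the other NK cells in the Treg sum (795 to 1015 against 350 to 410). The same held for the T cell sum (495 to 573 against 311 to 459), most of which was *Trbc2* (460, 356 and 406 against 310, 291 and 238). *Cd3d* (29.1 against 41.1) and *Cd3g* (17.2 against 23.4) were lower in ILC-like cells in Kaede-green 1. They were higher in Kaede-green 2 and Kaede-red, and *Trac* and *Cd5* were higher in every library. Whether RNA of T cells added to these values or to the receptor levels of ILC-like cells was not tested. The sums over CD4 T genes and over CD8 T genes did not set these classes apart. Over *Cd40lg*, *Trac* and *Cd3d* the sum was 1677 to 1969 in CD4 T and 1800 to 2023 in CD8 T cells. Over *Cd3d*, *Cd3g*, *Trac* and *Nkg7* it was 3339 to 5033 and 4824 to 6285. *Cd40lg* alone stood at 62.6, 51.6 and 25.7 CPM in CD4 T and 2.91, 2.98 and 0.869 in CD8 T cells. The gates also shared cells: 10.97%, 22.0% and 32.6% of the CD4 T gate also met the CD8 T gate, as did 16.6%, 23.2% and 19.98% of the Tregs. Of the CD8 T cells, 5.31%, 9.72% and 6.52% met another T gate. *Cd8a*, a gene of the CD8 T gate that CD4 T cells should lack, stood at 105, 215 and 419 CPM in the CD4 T gate. Whether such cells were doublets was not tested, and the fits, the levels, the cells with several receptors and the color comparison were also computed without them, which for all but the fits was decided after seeing the data. Shares of cells with a single receptor and pairs of receptors are given for all cells of a gate.

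The 6 genes lie on 4 chromosomes (GRCm38, GENCODE vM21). *Pdcd1* (ENSMUSG00000026285, chr1:94038305-94052553, minus strand) and *Ctla4* (ENSMUSG00000026011, chr1:60887000-60915832, plus strand, between *Cd28* and *Icos*) share chromosome 1. *Lag3* (ENSMUSG00000030124, chr6:124904361-124911705, minus strand) lies 16139 bases from *Cd4* on the chromosome that also holds *Klrg1* (ENSMUSG00000030114, chr6:122270596-122282882, minus strand). *Havcr2* (ENSMUSG00000020399) lies at chr11:46454935-46481255 on the plus strand, and *Cd160* (ENSMUSG00000038304) at chr3:96798763-96829351 on the minus strand, where it overlaps *Pdzk1* on the opposite strand. For *Pdcd1*, *Ctla4* and *Havcr2*, which were all lower in NK than in CD8 T cells, the 250 bases before the RefSeq start (GRCm38.p6) are printed on the strand of the gene. Capitals mark matches on either strand to GGAAA (the core of NFAT sites, read as TTTCC on the other strand), TGANTCA (AP-1) and TGTGGT (RUNX), factors that act downstream of antigen receptor signaling or in lymphocyte development.
Pdcd1, chr1:94052554-94052803, minus strand: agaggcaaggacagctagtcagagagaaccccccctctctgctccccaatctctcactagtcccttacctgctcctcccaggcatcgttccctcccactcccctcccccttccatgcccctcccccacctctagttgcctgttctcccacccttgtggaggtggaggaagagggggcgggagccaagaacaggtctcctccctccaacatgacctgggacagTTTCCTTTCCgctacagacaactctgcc
Ctla4, chr1:60908775-60909024, plus strand: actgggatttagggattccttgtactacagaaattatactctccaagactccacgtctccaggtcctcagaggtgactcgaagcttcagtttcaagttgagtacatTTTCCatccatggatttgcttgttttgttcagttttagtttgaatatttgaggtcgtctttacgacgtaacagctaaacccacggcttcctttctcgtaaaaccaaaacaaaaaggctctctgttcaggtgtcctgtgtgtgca
Havcr2, chr11:46454681-46454930, plus strand: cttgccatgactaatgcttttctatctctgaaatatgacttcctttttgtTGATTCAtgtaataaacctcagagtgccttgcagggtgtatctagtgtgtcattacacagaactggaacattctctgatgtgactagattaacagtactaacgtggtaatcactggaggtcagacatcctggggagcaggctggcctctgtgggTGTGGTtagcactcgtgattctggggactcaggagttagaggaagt
The *Pdcd1* window held GGAAA at 2 places, starting 28 and 23 bases before the start, and the *Ctla4* window held it once, 144 bases before the start. The *Havcr2* window held the AP-1 letters 200 bases and the RUNX letters 46 bases before the start. Such letters were not limited to the receptors that were lower in NK cells. The 2 windows of *Cd160*, not printed, both held TGTGGT, and 1 of them held GGAAA. These letters are common: among 32851 RefSeq windows of the same length, 55.6% held GGAAA, 6.75% TGANTCA and 14.0% TGTGGT. T-box (AGGTGTGA) and NR4A (AAAGGTCA) letters were searched too, with 0 matches in the windows of these genes. The *Ctla4* window lies inside the gene span given above, and 0 of 2 *Havcr2* transcripts held the 20 bases after its window. A match is a description of the sequence, and it was not tested whether any factor binds there.

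Tumor NK cells carried far less of the T cell exhaustion receptors than CD8 T cells of the same libraries. *Pdcd1*, *Havcr2*, *Lag3* and *Ctla4* were all lower in NK cells, by 30.02-fold, 21.4-fold, 9.28-fold and 5.56-fold. The first pair of folds is set against NK levels within or near the range of B cells, so their exact size is uncertain. B cells stood at 2.17, 16.4 and 14.4 CPM for *Pdcd1* (2, 10 and 1 UMIs). For *Havcr2* they stood at 0, 8.19 and 0 (0, 5 and 0 UMIs), with 7 B cells in Kaede-red. The *Ctla4* fold has the same limit in Kaede-green 1, with 32.9 CPM in NK cells and 29.3 in B cells. *Cd160* and *Klrg1*, the receptors long known from NK cells, did not pass the test in either direction. The comparison addresses whether tumor NK cells carry the inhibitory receptors that tumor CD8 T cells carry.

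*Pdcd1* stood at 7.37, 14.1 and 17.9 CPM in NK cells, and at 359, 320 and 521 in CD8 T cells. Each NK value was below each CD8 T value, and the KR+ library was the highest in both classes. The difference between the classes was -4.91 ± 0.24 on the log2 scale (SE; adjusted p = 0.000304, edgeR's quasi-likelihood fit, Benjamini-Hochberg adjusted across 13127 genes). *Havcr2* was close to undetected in NK cells, at 1.80, 4.06 and 2.81 CPM, and stood at 39.6, 60.8 and 89.3 in CD8 T cells. The groups did not overlap (log2 difference -4.42 ± 0.20, adjusted p = 0.000279). Kaede-green 2, with the highest NK value of *Havcr2*, also had the most myeloid RNA in its NK gate. Summed over 6 myeloid genes, the NK level was 72.8 CPM there, against 15.5 in Kaede-green 1 and 8.56 in Kaede-red. Whether this added to *Havcr2* was not tested.

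*Lag3*, the MHC class II receptor, stood at 30.3, 34.2 and 53.8 CPM in NK cells and at 305, 319 and 505 in CD8 T cells. The KR+ library was again the highest in both classes, and the classes were far apart in all 3 (log2 difference -3.21 ± 0.09, adjusted p = 0.000181). *Ctla4* was the least separated of the 4, with 32.9, 46.5 and 50.5 CPM in NK cells against 225, 212 and 308 in CD8 T cells. The NK values again lay below all CD8 T values (log2 difference -2.48 ± 0.13, adjusted p = 0.000362).

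For *Cd160* the NK values, 33.1, 36.8 and 61.5 CPM, overlapped the CD8 T values of 54.2, 63.1 and 58.9. NK cells were lower in the KG+ libraries and slightly higher in the KR+ library (log2 difference -0.42 ± 0.21, adjusted p = 0.189). For *Klrg1* the NK values of 19.5, 15.0 and 18.9 lay above the CD8 T values of 10.95, 13.9 and 9.11 in every library, with a log2 difference of 0.71 ± 0.21 that missed the threshold of 0.05 (adjusted p = 0.0552). Both calls depended on the libraries: without Kaede-red, *Cd160* passed as lower in NK cells (-0.73, adjusted p = 2.73e-05), and *Klrg1* passed as higher in them without Kaede-green 2 (1.02, adjusted p = 0.00451) or without Kaede-red (0.46, adjusted p = 0.0387), as well as with DESeq2 (0.72, adjusted p = 0.00808). Without the cells in more than 1 T gate the *Klrg1* level of CD8 T cells was 5.17 ± 2.60 (SD, n = 3) in place of 11.3 ± 2.44, and the difference grew to 1.92 (adjusted p = 0.0143).

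**Figure D1:**
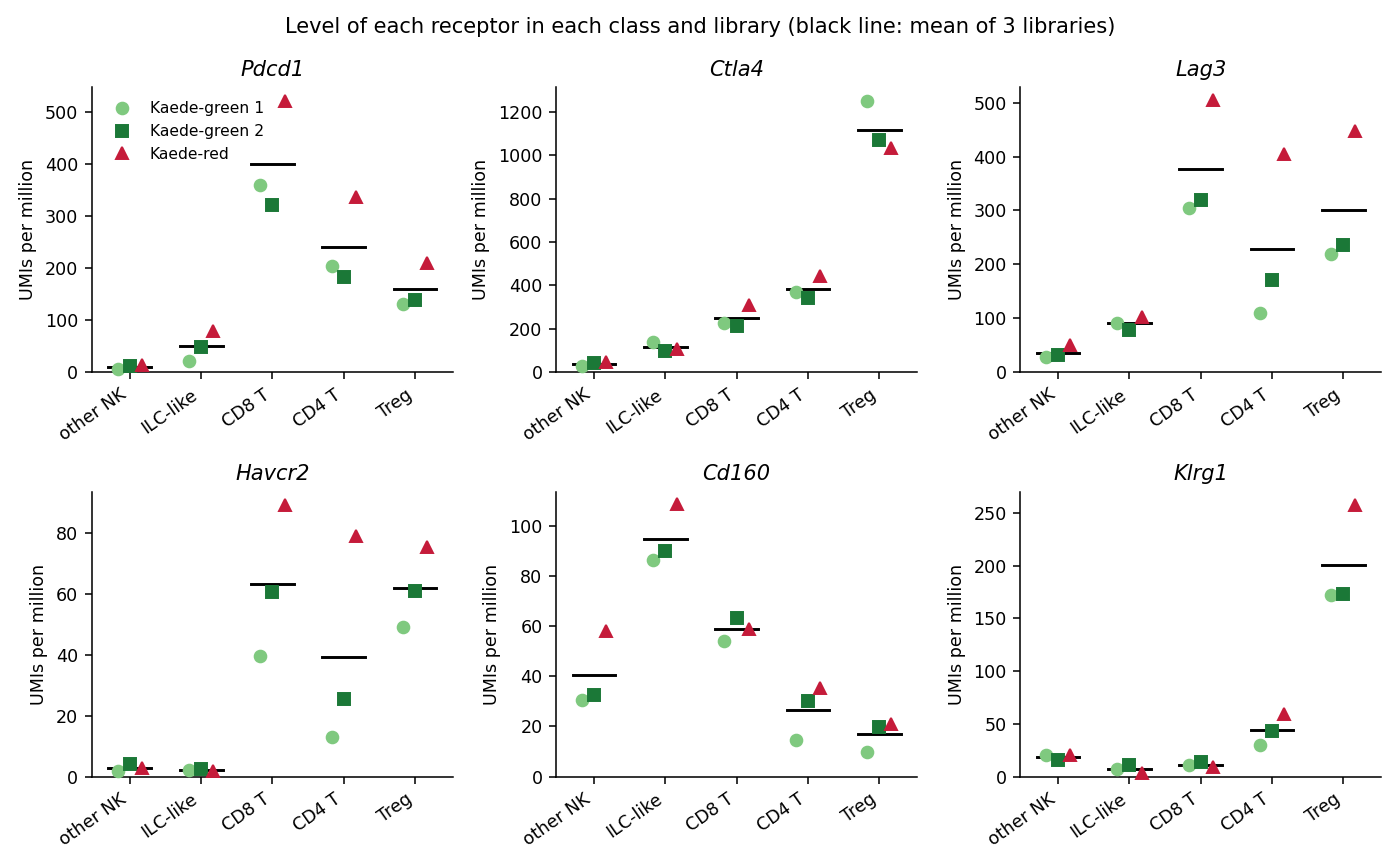
CPM of each receptor (vertical axis, linear from 0, a separate scale per gene) in the other NK cells, ILC-like cells, CD8 T cells, CD4 T cells and Tregs, with 1 point per library and a black line at the mean. *Pdcd1* is highest in CD8 T cells (320 to 521 CPM), *Ctla4* (1033 to 1254) and *Klrg1* (172 to 257) in Tregs, and *Cd160* in ILC-like cells (86.2 to 109).

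Of the 6 receptors 4 were lower and 0 were higher in NK cells, where 15.7% of all tested genes were called lower and 12.9% higher. The median log2 difference of the receptors was -2.84, beside -0.00 over all genes. Leaving out any library kept each of the 4 calls (*Pdcd1* -5.13 to -4.61, *Havcr2* -4.69 to -4.06, *Lag3* -3.26 to -3.15, *Ctla4* -2.61 to -2.32), as did requiring 0 *Cd3e* UMIs in NK cells.

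Other genes of the same pathways did not follow a single direction. Among 11 further inhibitory receptors, 3 were higher in NK cells, 7 were lower and 1 did not pass, with a median log2 difference of -0.72. The higher ones were *Cd244a* (58.8 against 19.2 CPM, log2 difference 1.76), which encodes the SLAM-family receptor 2B4, *Lilrb4a* (154 against 51.4, 1.63) and the collagen receptor gene *Lair1* (12.8 against 6.40, 1.07). The lower ones included *Cd5* (-4.57), an inhibitor of T cell receptor signaling, *Cd96* (-0.72) and *Klrc1* (-0.69), which encodes NKG2A. Among 10 ligands of the receptors, 9 were tested, 2 were higher, 2 lower and 5 did not pass (median -0.02). *Pdcd1lg2*, which encodes PD-L2, a ligand of PD-1, was higher in NK cells (133 ± 14.2 against 74.4 ± 17.1, log2 difference 0.90 ± 0.14, adjusted p = 0.00835), and *Cd80* (-3.22) and *Cd86* (-2.34), the ligands of CTLA-4, were lower. Of 6 signaling partners, the lipid phosphatase gene *Inpp5d*, which encodes SHIP-1, was higher (0.76), the SHP-1 gene *Ptpn6* (-0.43) and the ubiquitin ligase gene *Cblb* (-0.57) were lower, and 3 did not pass (median -0.09).

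Of 9 transcription factors linked to checkpoint receptor expression, 4 were lower in NK cells, 3 were higher and 2 did not pass (median log2 difference -0.84). *Tox*, a factor of exhausted T cells, stood at 17.1 CPM in NK cells against 50.9 in CD8 T cells (log2 difference -1.57), and *Irf4* (-3.60), *Batf* (-1.18) and *Ikzf2* (-0.84) were lower too. *Nr4a1* (0.62), *Nr4a3* (0.35) and *Nfatc1* (0.61) were higher in NK cells. *Nr4a1* and *Nr4a3* encode nuclear receptors induced early by antigen receptor signaling, and *Nfatc1* encodes a calcium-regulated factor.

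**Figure D2:**
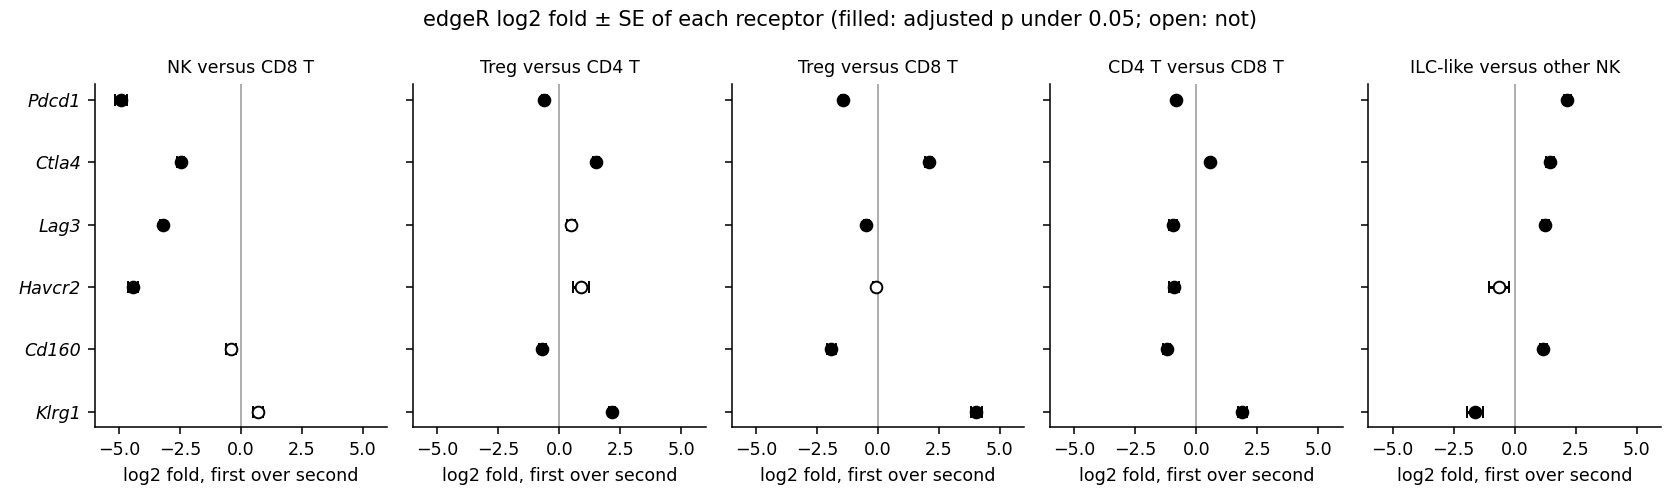
Log2 difference of each receptor (horizontal axis, point with SE) in 5 comparisons of classes, from edgeR fits over 3 libraries, with filled points for an adjusted p under 0.05 and open points for the others. In NK against CD8 T cells 4 receptors are filled and all 4 lie between -4.91 and -2.48, and in ILC-like against other NK cells 4 are filled on the higher side, from 1.18 to 2.15.

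ILC-like cells carried more of 4 receptors than the other NK cells. *Pdcd1*, *Ctla4*, *Lag3* and *Cd160* were 4.45-fold, 2.73-fold, 2.38-fold and 2.26-fold higher, and *Klrg1*, a marker of mature circulating NK cells, was 3.11-fold lower. The *Pdcd1* level of the other NK cells (10.5 ± 3.50 CPM, SD) lay within the range of B cells (2.17 to 16.4, on 2, 10 and 1 UMIs). In Kaede-green 1 the *Ctla4* level of the other NK cells (27.8) was also close to that of B cells (29.3). ILC-like cells, which lack *Eomes* by their definition, made up a small part of the NK gate. This comparison asks whether the receptors are spread evenly over the NK gate.

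*Pdcd1* stood at 21.5, 47.8 and 78.3 CPM in ILC-like cells and at 6.68, 11.5 and 13.5 in the other NK cells. The lowest ILC-like value was above the highest other value (log2 difference 2.15 ± 0.15, adjusted p = 5.59e-07). *Ctla4* stood at 139, 96.6 and 107 against 27.8, 42.5 and 46.4, *Lag3* at 91.6, 77.8 and 102 against 27.3, 30.8 and 50.3, and *Cd160* at 86.2, 89.8 and 109 against 30.5, 32.5 and 58.1. None of these ranges overlapped, and the log2 differences were 1.45 ± 0.18 (adjusted p = 0.000172), 1.25 ± 0.14 (8.10e-05) and 1.18 ± 0.14 (0.000119). Unlike the other 4, *Klrg1* was low in ILC-like cells, at 7.54, 11.1 and 3.05 CPM against 20.1, 15.3 and 20.03 (log2 difference -1.64 ± 0.33, adjusted p = 0.00763). That value rests on 7, 23 and 13 UMIs, and without Kaede-red it was -0.81 and no longer passed (adjusted p = 0.0945), while without Kaede-green 2 it was -2.40.

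*Havcr2* had 2, 5 and 8 UMIs in all ILC-like cells and did not pass (-0.65 ± 0.41, adjusted p = 0.55). With 4 receptors higher and 1 lower, the background was 2.65% of all tested genes called higher and 2.59% called lower. The median over the receptors was 1.21 on the log2 scale, beside -0.01 over all genes. Of the 11 further inhibitory receptors, *Cd200r1* (2.94), *Cd101* (1.18) and *Klrc1* (0.92) were higher, *Lair1* was lower (-2.04), and 7 did not pass (median 0.34). *Ikzf2*, which encodes Helios, stood at 380 CPM against 114 (log2 difference 1.66), *Tox* was higher (0.59), *Nr4a2* (-0.53) and *Nfatc1* (-0.44) were lower and 5 of the 9 transcription factors did not pass. None of the 8 ligands tested (median -0.08) or the 6 signaling partners (median -0.09) passed the edgeR test.

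Among T cells, CD8 T cells had the most *Pdcd1*, *Lag3* and *Cd160*, and Tregs the most *Ctla4* and *Klrg1*. CD4 T cells lay between them for *Pdcd1*, *Ctla4*, *Cd160* and *Klrg1*. *Havcr2* did not differ detectably between Tregs and CD8 T cells.

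*Ctla4*, which Tregs use to strip CD80 and CD86 from antigen-presenting cells, stood at 1254, 1072 and 1033 CPM in Tregs, at 368, 343 and 445 in CD4 T cells and at 225, 212 and 308 in CD8 T cells. No range overlapped another. Tregs were 2.82-fold above CD4 T cells (log2 difference 1.49 ± 0.13, adjusted p = 0.001) and 4.23-fold above CD8 T cells (2.08 ± 0.15, adjusted p = 0.000371), and CD4 T cells were above CD8 T cells by 0.57 ± 0.05 (adjusted p = 6.10e-05).

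*Klrg1* was the receptor with the widest spread among T cells. It stood at 172, 173 and 257 CPM in Tregs, 29.6, 43.3 and 59.3 in CD4 T cells and 10.95, 13.9 and 9.11 in CD8 T cells. Again the ranges were apart, and the KR+ library was the highest for Tregs and CD4 T cells but the lowest for CD8 T cells. Tregs were 16.4-fold above CD8 T cells (4.04 ± 0.23, adjusted p = 0.00016) and 4.45-fold above CD4 T cells (2.16 ± 0.13, adjusted p = 0.000335), and CD4 T cells were 3.70-fold above CD8 T cells (1.89 ± 0.19, adjusted p = 8.38e-05). Without the cells in more than 1 T gate, the mean level was 240 CPM in Tregs and 5.17 in CD8 T cells, and the log2 difference was 5.48 (adjusted p = 0.00039).

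*Pdcd1* ran the other way, from 359, 320 and 521 CPM in CD8 T cells through 204, 182 and 336 in CD4 T cells to 131, 139 and 209 in Tregs. Neighbors in this order overlapped over the 3 libraries, but within each library the order was the same. Tregs were 2.69-fold below CD8 T cells (-1.43 ± 0.09, adjusted p = 0.000233), and CD4 T cells were below CD8 T cells by -0.83 ± 0.05 (adjusted p = 5.22e-06). The Treg value was below the CD4 T value by -0.62 ± 0.11 (adjusted p = 0.0125), a call that was lost without Kaede-green 2 (-0.72, adjusted p = 0.0636).

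*Cd160* stood at 54.2, 63.1 and 58.9 CPM in CD8 T cells, 14.7, 30.1 and 35.4 in CD4 T cells and 9.63, 19.8 and 20.9 in Tregs. CD8 T cells were above both other classes in every library, by 3.78-fold over Tregs (-1.92 ± 0.18 for Tregs, adjusted p = 0.000881) and with -1.22 ± 0.15 for CD4 T cells (adjusted p = 0.000231). Tregs were below CD4 T cells (-0.70 ± 0.14, adjusted p = 0.0167), but not past the threshold without Kaede-green 2 (-0.75, adjusted p = 0.129), with DESeq2 (-0.69, adjusted p = 0.0722) or without the cells in more than 1 T gate (-0.51, adjusted p = 0.141).

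*Lag3* varied widely between libraries in CD4 T cells, at 109, 171 and 404 CPM, against 220, 236 and 448 in Tregs and 305, 319 and 505 in CD8 T cells. CD4 T cells were below CD8 T cells (-0.95 ± 0.15, adjusted p = 0.00127) and Tregs were 1.38-fold below them (-0.47 ± 0.09, adjusted p = 0.0131). The Treg call was lost without Kaede-green 1 (-0.40, adjusted p = 0.105) or Kaede-green 2 (-0.45, adjusted p = 0.0883). Between Tregs and CD4 T cells the difference of 0.48 ± 0.15 did not pass (adjusted p = 0.0949). It passed without Kaede-red, in a fit of the KG+ libraries alone (0.68, adjusted p = 6.36e-06). It also passed without the cells in more than 1 T gate (1.14, adjusted p = 0.0006).

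*Havcr2* stood at 49.3, 61.1 and 75.6 CPM in Tregs and at 39.6, 60.8 and 89.3 in CD8 T cells, with a log2 difference of -0.09 ± 0.11 for Tregs (adjusted p = 0.617) whose sign turned without Kaede-red (0.036). In CD4 T cells it stood at 12.9, 25.5 and 79.3, so that the KR+ value lay above that of Tregs. CD4 T cells were below CD8 T cells by -0.92 ± 0.19 (adjusted p = 0.00624; -1.09 and adjusted p = 0.0593 with DESeq2), and Tregs were not past the threshold against CD4 T cells (0.88 ± 0.31, adjusted p = 0.127). As with *Lag3*, that difference passed without Kaede-red (1.46, adjusted p = 9.69e-10) and without the cells in more than 1 T gate (1.63, adjusted p = 0.000408).

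Tregs had 2 receptors higher and 2 lower than CD4 T cells, where 4.72% of all genes were called higher and 5.28% lower. Against CD8 T cells they had 2 higher and 3 lower (12.6% and 10.1% of all genes), and CD4 T cells had 2 higher and 4 lower than CD8 T cells (12.5% and 11.6%). The medians over the receptors were 0.68, -0.28 and -0.87 on the log2 scale, beside -0.01, -0.02 and -0.00 over all genes. Without the cells in more than 1 T gate, CD4 T and CD8 T cells lay further apart in all 6 receptors, for example -1.78 for *Lag3*, -1.80 for *Havcr2*, -2.37 for *Cd160* and 3.602 for *Klrg1*. Tregs then differed from CD8 T cells by -1.996 for *Pdcd1*, 2.45 for *Ctla4*, -2.79 for *Cd160* and -0.60 for *Lag3*, and from CD4 T cells by -0.63 for *Pdcd1*, 1.41 for *Ctla4* and 1.83 for *Klrg1*, all past the threshold.

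The further inhibitory receptors went both ways among T cells too. Against CD8 T cells, Tregs had more *Tigit* (log2 difference 1.25), *Cd200r1* (1.53), *Cd5* (1.63) and *Vsir* (0.69), which encodes VISTA, and less *Klrc1* (-2.03), *Cd96* (-1.75), *Cd244a* (-1.45) and *Lilrb4a* (-0.76), with 3 not passed (median 0.00). Against CD4 T cells, 3 were higher in Tregs, 6 lower and 2 not passed (median -0.69). CD4 T cells had 7 higher than CD8 T cells, 2 lower and 2 not passed (median 0.32). Among the transcription factors, Tregs had more *Ikzf2* (2.19), *Prdm1* (1.73), *Batf* (1.20) and *Nr4a1* (0.59) than CD8 T cells and less *Nr4a2* (-1.34) and *Nr4a3* (-0.50), with 3 not passed (median 0.30). Against CD4 T cells, 3 were higher in Tregs, 2 lower and 4 not passed (median -0.02), and CD4 T cells had 4 higher than CD8 T cells, 1 lower and 4 not passed (median 0.17).

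The ligands and signaling partners went both ways as well. Tregs had more *Cd274* (PD-L1, 0.47) and *Cd80* (0.60) than CD8 T cells and less *Cd86* (-0.47) and *Cdh1* (-1.27), with 4 of 8 not passed (median 0.02), and against CD4 T cells 1 of 7 was higher and 1 lower (median -0.05). CD4 T cells had 1 of 9 ligands higher than CD8 T cells and 4 lower (median -0.18). Of the 6 signaling partners, Tregs had 1 higher and 3 lower than CD8 T cells (median -0.13) and 0 higher and 2 lower than CD4 T cells (median -0.10), and CD4 T cells had 2 higher and 1 lower than CD8 T cells (median 0.07). *Ptpn6* was lower than in CD8 T cells both in Tregs (-0.90) and in CD4 T cells (-0.73).

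Set in order of their mean levels, the 5 classes ranked differently for each receptor. For *Ctla4* the order was Treg, CD4 T, CD8 T, ILC-like and other NK cells, with no neighbors overlapping. For *Lag3* it was CD8 T, Treg, CD4 T, ILC-like and other NK cells, with overlaps among the T cell classes. For *Pdcd1* it was CD8 T, CD4 T, Treg, ILC-like and other NK cells, with overlaps among the T cell classes as well. For *Cd160*, ILC-like cells came first and lay clear of CD8 T cells, followed by other NK cells, CD4 T cells and Tregs, which overlapped from neighbor to neighbor. For *Klrg1* the order was Treg, CD4 T, other NK, CD8 T and ILC-like cells, with an overlap between the last pair alone. For *Havcr2* CD8 T cells and Tregs were level, and the NK classes lay at or below 4.19 CPM. Without the cells in more than 1 T gate, the mean *Klrg1* level of CD8 T cells (5.17) fell below that of ILC-like cells (7.23), and no other neighbors changed places by their means.

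Shares of cells gave the same picture after thinning. The gates were set on all UMIs before thinning, so which cells entered a class could still depend on depth. With every cell thinned to 2000 UMIs, *Pdcd1* was found in 1.30%, 2.39% and 2.80% of NK cells and in 41.0%, 41.4% and 59.2% of CD8 T cells. *Lag3* was found in 4.33%, 4.75% and 9.20% of NK cells and 30.3%, 38.8% and 54.9% of CD8 T cells, and *Ctla4* in 3.45%, 7.96% and 8.28% against 27.7%, 28.1% and 38.9%. The KR+ library had the highest share for all 3 receptors in both classes. Before thinning, *Pdcd1* was found in 3.14%, 9.04% and 12.2% of NK cells and 63.3%, 73.3% and 89.3% of CD8 T cells.

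Free RNA in the droplets gives some UMIs to cells that do not express a gene. B cells, which should lack most of these receptors, give a rough measure of it. There were 200, 100 and 7 B cells, 307 over all libraries. Their medians were 4014, 4840 and 4975 UMIs before thinning, against 6132, 8184 and 17234 in NK cells. The pooled B cell shares thus come almost only from the KG+ libraries, while the pooled NK shares include 3175 Kaede-red cells. Thinning equalizes the UMIs per cell, not the part of them that is free RNA. At 2000 UMIs *Pdcd1* was found in 0.651% of B cells (95% exact binomial interval 0.079% to 2.33%) and in 2.21% of NK cells (1.91% to 2.55%), so the NK share was not separable from the B cell share. *Havcr2* was found in 0.473% of NK cells (40 of 8458, 0.338% to 0.643%) and in 0 of 307 B cells, a count that limits their share to at most 0.977% (3 counts; exact interval up to 1.19%), so the NK and B cell shares were not separable at this depth. *Cd160* was found in 6.99% of NK cells (6.45% to 7.55%) against 1.30% of B cells (0.356% to 3.30%), *Lag3* in 6.29% (5.78% to 6.83%) against 1.63% (0.531% to 3.76%), *Ctla4* in 6.69% (6.17% to 7.25%) against 2.93% (1.35% to 5.49%), and *Klrg1* in 3.13% (2.77% to 3.53%) against 0.326% (0.00825% to 1.80%). These 4 pooled shares lay above the pooled B cell intervals. Within single KG+ libraries the B cell intervals are wider. There the NK shares of *Lag3* and *Klrg1* each lay inside the interval in Kaede-green 1, Kaede-green 2 or both. For *Ctla4* the separation held in neither KG+ library. Its share of NK cells lay inside the B cell interval in Kaede-green 1 (3.45%) and in Kaede-green 2 as well. The intervals cover counting error only, and in Kaede-green 2 *Ctla4* was found in 6.00% of 100 B cells.

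Among the other classes, the widest share was *Ctla4* in Tregs, 64.5% of all Tregs at 2000 UMIs, beside 37.2% of CD4 T cells and 17.2% of ILC-like cells. *Klrg1* was found in 28.3% of Tregs, 6.81% of CD4 T cells and 1.69% of CD8 T cells. *Havcr2* was found in 12.9% of Tregs and 11.2% of CD8 T cells, and *Cd160* in 14.6% of ILC-like cells and 8.83% of CD8 T cells.

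**Figure D3:**
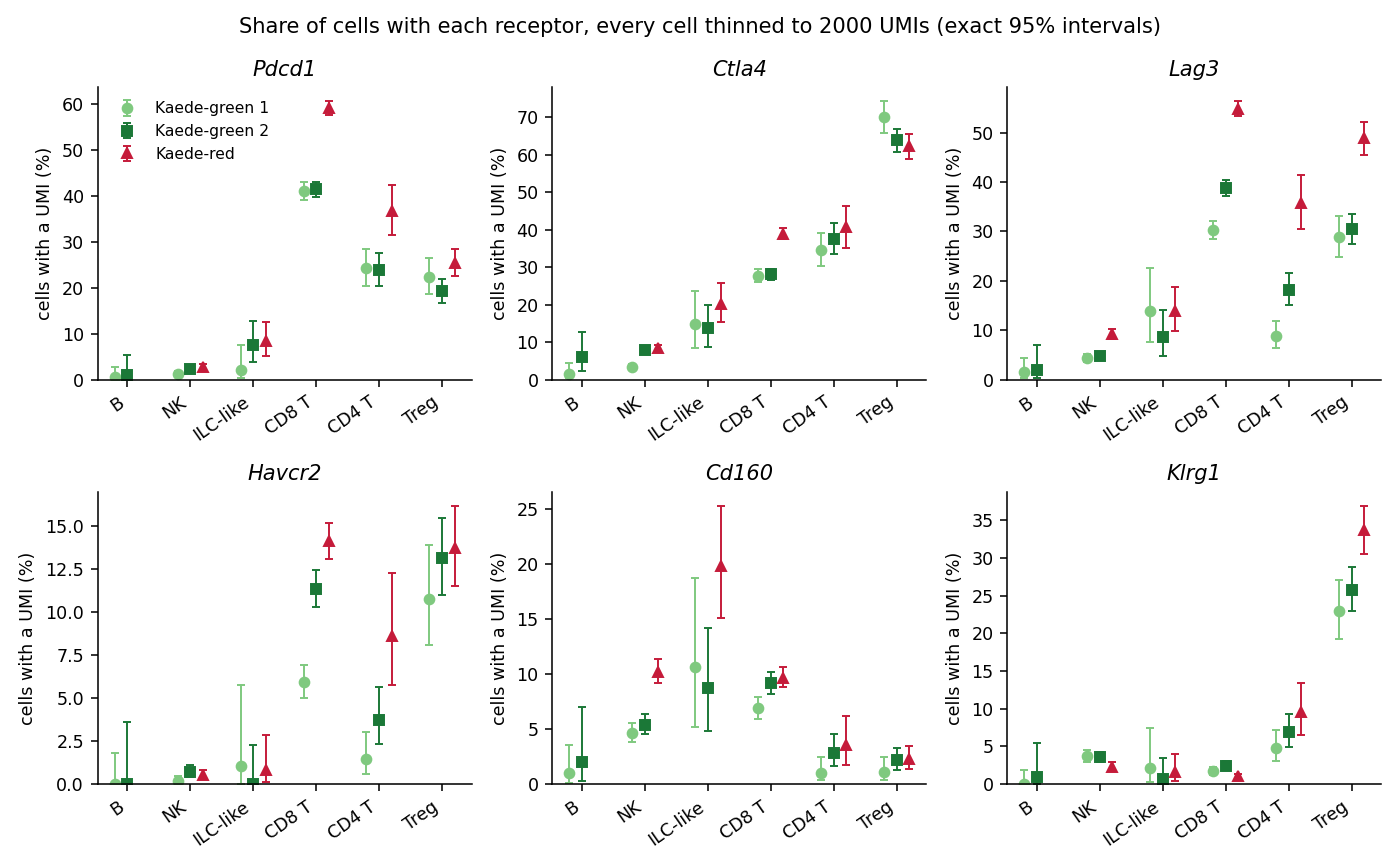
Percent of cells with at least 1 UMI of each receptor after every cell was thinned to 2000 UMIs (vertical axis from 0, a separate scale per gene), by class and library, with exact 95% binomial bars. B cells are drawn for the Kaede-green libraries only, since Kaede-red held 7. *Pdcd1* is found in 41.0% to 59.2% of CD8 T cells and 1.30% to 2.80% of NK cells.

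Receptors were found together in many CD8 T cells and in few NK cells. At 2000 UMIs, 2 or more of the 6 receptors were found in 1.38%, 2.69% and 4.31% of NK cells and in 35.1%, 41.1% and 59.7% of CD8 T cells. The lowest CD8 T value was above the highest NK value, and the KR+ library was the highest in both classes. The difference was 42.5 ± 11.4 percentage points (SD, n = 3 libraries), with CD8 T cells higher in 3 of 3 libraries. A two-sided exact permutation test over the libraries gave p = 0.25, the smallest value that 3 libraries allow.

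No receptor at all was found in 84.0%, 78.0% and 71.2% of NK cells at that depth, against 36.9%, 28.9% and 13.4% of CD8 T cells. At least 3 receptors were found in 0.185% ± 0.0701 of NK cells and 18.2% ± 7.18 of CD8 T cells. Tregs resembled CD8 T cells in this count, with 2 or more receptors in 48.4%, 48.5% and 63.0%. CD4 T cells had 16.0%, 23.8% and 41.2%, or 14.2%, 21.4% and 31.8% without the cells in more than 1 T gate, when Tregs had 47.4%, 48.9% and 62.8%. ILC-like cells had 10.6%, 6.83% and 12.7%, above the whole NK gate in every library. Of the B cells, 0 of 307 had 2 or more. Without thinning, 2 or more receptors were found in 10.4%, 23.1% and 50.6% of NK cells and in 63.3%, 77.7% and 91.5% of CD8 T cells, so the size of both shares moved with depth. Their order did not change at 1000, 2000 or 4000 UMIs.

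**Figure D4:**
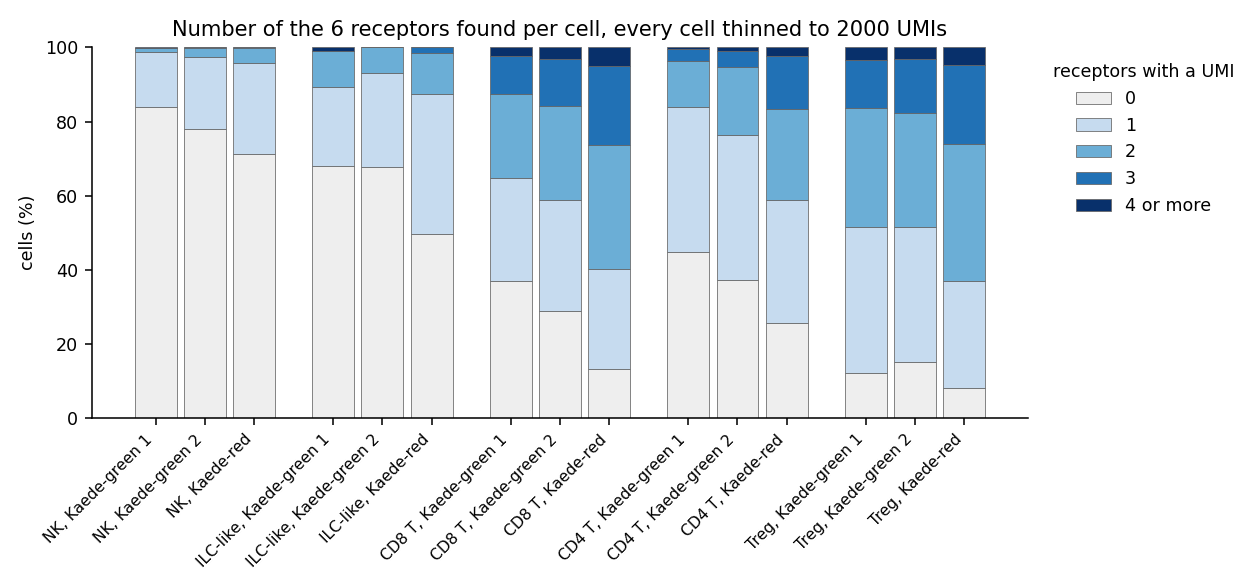
Stacked bars of the percent of cells (vertical axis, 0 to 100) with 0, 1, 2, 3 or at least 4 of the 6 receptors after every cell was thinned to 2000 UMIs, 1 bar per class and library. The palest band, 0 receptors, takes 71.2% to 84.0% of NK cells and 13.4% to 36.9% of CD8 T cells.

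In CD8 T cells the pairs of *Pdcd1*, *Lag3*, *Ctla4* and *Havcr2* were found in the same cell more often than the product of their separate shares. *Pdcd1* with *Lag3* was found in 463, 740 and 1502 cells, 1.54, 1.33 and 1.09 times the product. *Lag3* with *Havcr2* was found in 79, 237 and 400 cells, at ratios of 1.81, 1.55 and 1.21, and *Pdcd1* with *Havcr2* in 98, 209 and 403 cells, at ratios of 1.66, 1.28 and 1.13. The ratio was lowest in the KR+ library, where the separate shares were highest. At this depth *Klrg1* was found with *Pdcd1* in 10, 22 and 20 cells (ratios of 0.59, 0.62 and 0.75) and with *Cd160* in 0, 2 and 1 cells. With all UMIs, *Klrg1* and *Pdcd1* were found together in 89, 217 and 198 cells, at ratios of 1.10, 0.967 and 0.995. For the other ratios cells were thinned to the same number of UMIs, and all ratios describe cells within a library, with no test. These pairs include the cells in more than 1 T gate. Without those cells the *Klrg1* UMIs of the CD8 T gate fell from 309, 669 and 650 to 121, 335 and 187. The pairs were not computed without them.

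In NK cells the same pairs were rare. *Pdcd1* and *Havcr2* were found together in 0 cells of each library, and *Pdcd1* and *Lag3* in 2, 4 and 11 cells. These counts are limited by the low separate shares of the receptors in NK cells. They do not show that the receptors avoid each other there. *Ctla4* with *Lag3* was found in 16, 16 and 38 NK cells, 4.10, 1.58 and 1.57 times the product of the shares. *Lag3* with *Cd160* was found in 9, 15 and 35 cells, at ratios of 1.72, 2.18 and 1.17. These pairs include the ILC-like cells and cells with high doublet scores, and are not given without them. In Kaede-green 1, exactly 2 receptors were found in 9.57% of ILC-like cells and 0.875% of the other NK cells. How far either group moved the ratios was not tested.

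Between the colors, *Lag3* was the receptor that was higher in KR+ cells in most classes. It was higher in KR+ than in both KG+ libraries in NK cells, CD8 T cells, CD4 T cells and Tregs. *Pdcd1* was higher in KR+ CD4 T cells and Tregs, *Havcr2* in KR+ CD4 T cells and *Cd160* in KR+ NK cells. The comparison addresses what time in the tumor goes along with, but with 1 KR+ library it has no test. A receptor is called here where KR+ was at least 1.5-fold from each KG+ library in the same direction and by more than those libraries differed, among genes with at least 30 UMIs in the class. At a fold of 2 in its place, *Lag3* stayed called in CD4 T cells alone. Library, depth and color cannot be told apart.

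In NK cells, *Lag3* stood at 53.8 CPM in KR+ cells against 30.3 and 34.2 in KG+ cells (1.77-fold and 1.57-fold), and *Cd160* at 61.5 against 33.1 and 36.8 (1.86-fold and 1.67-fold). These 2 of 6 receptors were called higher and 0 lower, where 5.66% of all genes were higher and 15.5% lower. *Pdcd1* (2.43-fold and 1.27-fold) and *Ctla4* (1.53-fold and 1.09-fold) were above both KG+ libraries but not past the rule, and *Havcr2* (1.54 and 0.690) and *Klrg1* (0.967 and 1.26) lay between them. In ILC-like cells *Klrg1* was the single receptor called, as lower (0.392 and 0.279 of the KG+ levels, on 13 UMIs in the KR+ library), where 2.49% of genes were called higher and 4.91% lower. *Pdcd1* there was 3.55-fold and 1.63-fold above the KG+ libraries, which themselves differed by more than the smaller of these, and *Havcr2* had too few UMIs. *Ctla4* (0.769 and 1.11), *Lag3* (1.11 and 1.32) and *Cd160* (1.25 and 1.21) were not called.

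In CD8 T cells *Lag3* was 1.65-fold and 1.58-fold higher in KR+ cells, with 0 receptors lower (4.23% of genes higher, 7.47% lower). *Pdcd1* (1.45 and 1.63), *Ctla4* (1.36 and 1.45) and *Havcr2* (2.26 and 1.47) were above both KG+ libraries and short of the rule, *Cd160* was level (1.09 and 0.933) and *Klrg1* was below both (0.831 and 0.653). In Tregs *Lag3* (2.04 and 1.90) and *Pdcd1* (1.60 and 1.51) were called higher and 0 receptors lower (3.03% of genes higher, 2.21% lower). *Ctla4* was slightly below both KG+ libraries (0.824 and 0.963), and *Klrg1* was above both (1.49 and 1.48). *Havcr2* (1.53 and 1.24) and *Cd160* (2.16 and 1.06) were not called.

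CD4 T cells had the widest differences. *Lag3* was 3.70-fold and 2.37-fold higher in KR+ cells, *Havcr2* 6.08-fold and 3.11-fold and *Pdcd1* 1.64-fold and 1.84-fold, with 0 receptors lower (5.99% of genes higher, 6.14% lower). *Klrg1* was 2.00-fold and 1.37-fold higher and *Ctla4* 1.21-fold and 1.30-fold, both short of the rule, as was *Cd160* (2.40 and 1.18). The share of CD4 T cells that also met the CD8 T gate rose along the same libraries, from 10.97% and 22.0% to 32.6%. Without the cells in more than 1 T gate, *Lag3* remained called in CD4 T cells (4.90 and 2.56), CD8 T cells (1.64 and 1.57) and Tregs (2.05 and 2.03), *Pdcd1* was no longer called in CD4 T cells (1.08 and 1.36) or Tregs (1.27 and 1.32), *Havcr2* was no longer called in CD4 T cells (5.44 and 2.17), and *Klrg1* was called higher in CD4 T cells (3.05 and 1.93) and Tregs (1.76 and 1.53).

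The share of all genes called was computed for the main setting alone, so color calls under other settings have no background beside them. Several of the color calls changed in cells of 3000 to 15000 UMIs, in which NK cells had medians of 6018, 7374 and 8596 UMIs. That window kept 2365 of 2608, 2210 of 2676 and 1363 of 3175 NK cells. It thus left out more of the KR+ cells and compares another subset of cells. *Lag3* was called higher there in the same 4 classes, from 1.80-fold and 1.74-fold in NK cells to 5.34-fold and 2.78-fold in CD4 T cells, as were *Cd160* in NK cells (1.78 and 1.85) and *Havcr2* in CD4 T cells (5.87 and 3.004). *Klrg1* in ILC-like cells was no longer called and lay above both KG+ libraries (1.12 and 1.28), while in NK cells it was called lower (0.542 and 0.643) and in CD4 T cells higher (2.67 and 2.11). *Pdcd1* was no longer called in CD4 T cells (1.25 and 1.51) or Tregs (1.23 and 1.44), was called in CD8 T cells (1.71 and 1.76), and in NK cells was level with Kaede-green 2 (0.997). *Ctla4* was called higher in CD8 T cells (1.79 and 1.76) and CD4 T cells (1.60 and 1.71). *Pdcd1* in Tregs was also not called over every deposited barcode (1.58 and 1.46) or without high doublet scores (1.49 and 1.29), where *Klrg1* was called lower in CD8 T cells (0.610 and 0.454) and higher in Tregs (1.74 and 1.74).

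**Figure D5:**
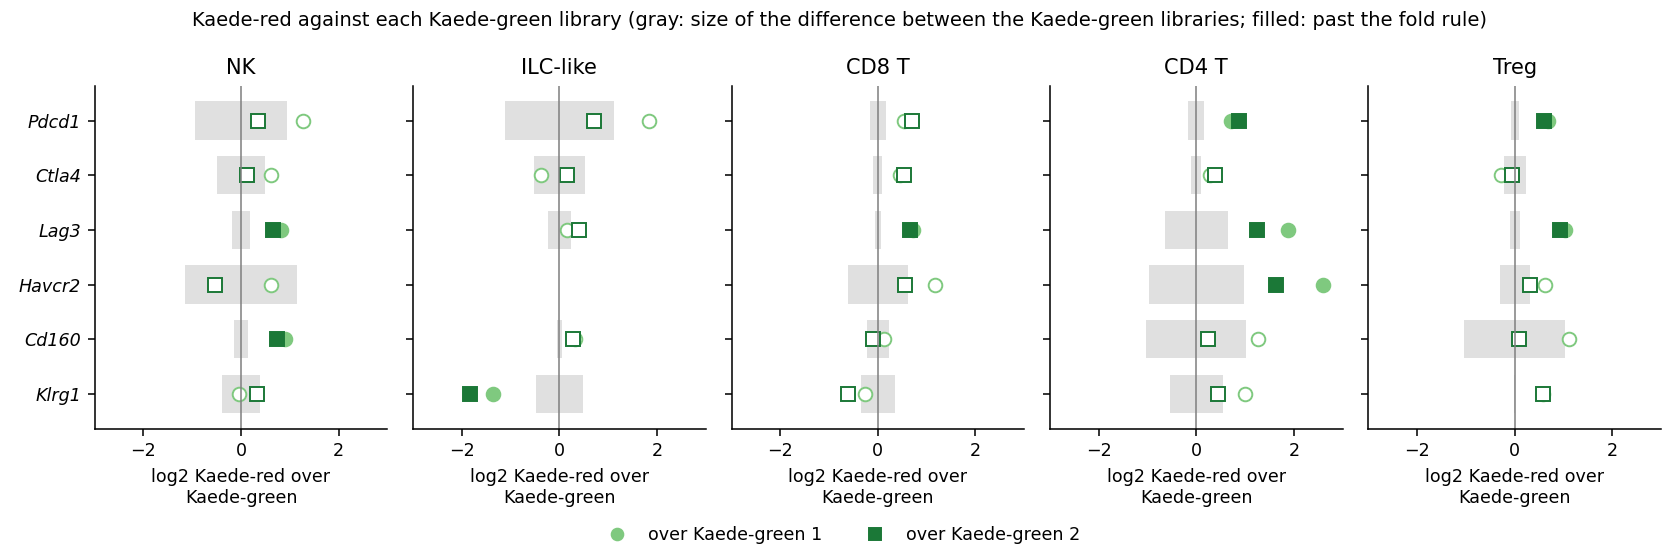
Log2 ratio of KR+ over each KG+ library (horizontal axis) for each receptor in 5 classes, with a gray bar as wide as the difference between the KG+ libraries to either side of 0, and filled symbols where the fold rule was met. *Lag3* is filled on the higher side in NK cells, CD8 T cells, CD4 T cells and Tregs, and *Klrg1* in ILC-like cells on the lower side, a call that was lost in cells of 3000 to 15000 UMIs.

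The receptors differed in how alike their patterns over classes and libraries were, and no grouping was computed. Over the 15 sums of 5 classes in 3 libraries, the log2 levels of *Pdcd1* and *Lag3* had a Pearson r of 0.93, *Lag3* and *Havcr2* 0.90, and *Pdcd1* and *Havcr2* 0.85. *Ctla4* followed *Lag3* and *Havcr2* (0.82 with each) more closely than *Pdcd1* (0.76). *Klrg1* followed *Ctla4* (0.72) and, less closely, *Havcr2* (0.58), and ran against *Cd160* (-0.83). *Cd160* also ran against *Ctla4* (-0.57) and *Havcr2* (-0.44). The 15 sums share libraries and their depths, and the values describe these sums, with no test.

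Among 10468 genes compared in the same way, the 3 with the highest r were *Nrp1* (0.959), *Il21r* (0.957) and *Cxcr6* (0.950) for *Pdcd1*, and *Ly6a* (0.977), *Mrpl14* (0.977) and *Sytl1* (0.975) for *Ctla4*. For *Lag3* they were *St14* (0.950), *Ntan1* (0.947) and *Gstp3* (0.945), and for *Havcr2* they were *Popdc2* (0.982), *Csf1* (0.970) and *Tff1* (0.967). *Cd160* was most like *Sema6d* (0.941), *Gm36723* (0.934) and *Qpct* (0.928), and *Klrg1* most like *Dbndd2* (0.955), *Arl5a* (0.945) and *Snx3* (0.936). *Nrp1* encodes a semaphorin and VEGF receptor, *Il21r* the IL-21 receptor, *Cxcr6* the receptor of CXCL16, and *Csf1* the macrophage growth factor M-CSF.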

How the data were processed

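Deposited were the UMI counts per gene and cell of 3 libraries of 10x 3' v3 scRNA-seq of TILs (counts, not normalized), which the authors made with Cell Ranger (6.1.2 in the submitters' processing notes, 6.0.1 in the file headers) on mm10. Totals were 87193225, 129438292 and 175848894 counts. Cells with 1000 to 6000 genes and under 7.5% mitochondrial counts were kept (10000 of 10498, 11078 of 12327 and 10865 of 11956), following the study's methods. Cells with high doublet scores stayed in, and leaving out the top 6% by Scrublet score was an alternative. The classes were set by raw counts as described in the report, and B cells by at least 2 *Cd79a* counts.

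Counts were summed per library and class and tested in edgeR 4.0.16 (R 4.3.3; TMM, filterByExpr, quasi-likelihood fit with a library term, Benjamini-Hochberg adjustment over all genes, threshold 0.05), with 6 sums per comparison. The sums of 1 library came from the same cell suspension, which is why library was a term. The fit was run on simulated counts with a common dispersion and no library or color effect beyond depth. That run does not show how the fit performs on these data. No fit compared colors, since Kaede-red is 1 library. Thinning drew UMIs without replacement (seed 0) and left out 1 NK cell, 2 CD8 T cells and 1 Treg below 2000 UMIs. Pearson r used log2(CPM + 1). Depth limits the shares: 1 UMI in a cell thinned to 2000 is the lowest level that can be seen. The 6 receptors, the gates and the gene lists were chosen with earlier results of these data known. Named genes were the 6 receptors, the list members that passed the test, and for each receptor the 3 genes with the highest r. Alternatives were DESeq2 1.42.0, no filter on low counts, no library term, leaving out each library, other gates, filters and depths. GENCODE vM21 matched 32235 of the 32285 gene IDs (99.8%). RefSeq windows were available for *Pdcd1*, *Ctla4*, *Havcr2* and *Cd160*, and those of *Cd160* were not printed. *Lag3* and *Klrg1* were named only.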

Additional observations from a re-analysis of the deposited data

Results flagged for a closer look

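For *Ctla4* and *Klrg1*, the KR+ library lay above both KG+ libraries in some classes and below both in others. The mean log2 ratio of KR+ over KG+ for *Ctla4* was 0.37 in NK cells, 0.49 in CD8 T cells and 0.33 in CD4 T cells, and -0.17 in Tregs, the class with the most *Ctla4*. For *Klrg1* it was 0.73 in CD4 T cells and 0.57 in Tregs, and -0.44 in CD8 T cells and -1.60 in ILC-like cells. Of these 8 values, the fold rule of the color comparison called *Klrg1* in ILC-like cells alone, as lower, on 7, 23 and 13 UMIs, and in cells of 3000 to 15000 UMIs it turned (1.12-fold and 1.28-fold, not called). In such cells *Klrg1* was called lower in NK cells and higher in CD4 T cells, and *Ctla4* higher in CD8 T and CD4 T cells. The differences between classes were not tested, since there was 1 KR+ library.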

How the results depend on the processing

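Over 5 comparisons, 6 receptors and their alternatives, 295 of 336 log2 differences kept their direction and their side of the threshold, 17 newly passed it, 21 no longer passed and 3 turned sign: *Havcr2* in Tregs against CD8 T cells without Kaede-red (0.036, against -0.21 as the lowest value on leaving out a library) and in cells of 3000 to 15000 UMIs (0.13), and *Havcr2* in ILC-like against other NK cells in such cells (0.31). The number of genes called was 3753 for NK against CD8 T cells (2395 to 5251 on leaving out each library), 1072 for Treg against CD4 T cells (478 to 3553), 2808 for Treg against CD8 T cells (1543 to 4613), 2893 for CD4 T against CD8 T cells (1973 to 3520) and 593 for ILC-like against other NK cells (429 to 877), and Tregs against CD4 T cells had 2 to 6 called receptors in place of 4. Without the library term (no replicate block, so that the pairing of sums by library is ignored) it was 1739, 703 and 61 genes for NK against CD8 T, Treg against CD4 T and CD4 T against CD8 T cells, and 99 for ILC-like cells, with 2, 1 and 1 receptors called in the last 3. Treg against CD4 T cells gave 1919 genes with no filter on low counts, 2916 without the cells in more than 1 T gate and 2033 in cells of 3000 to 15000 UMIs, and DESeq2 called 1813 genes in CD4 T against CD8 T cells. The share of cells with 2 or more receptors was 28.0% of NK cells and 77.5% of CD8 T cells with all UMIs, 0.780% and 24.3% at 1000 UMIs and 7.96% and 64.5% at 4000 UMIs, and 2.04% to 3.50% and 38.1% to 50.4% at 2000 UMIs on leaving out each library. At a fold of 2 in place of 1.5, 2 of the 8 receptor and class pairs stayed called higher in KR+ cells, *Lag3* and *Havcr2* in CD4 T cells. *Lag3* was then no longer called in NK cells, CD8 T cells or Tregs. Without high Scrublet scores 2 pairs in place of 1 were called lower. In cells of 3000 to 15000 UMIs, 10 pairs were called higher and 1 lower: *Pdcd1* was lost in CD4 T cells and Tregs, *Pdcd1* and *Ctla4* were gained in CD8 T cells and *Ctla4* and *Klrg1* in CD4 T cells, and the lower call passed from *Klrg1* in ILC-like cells, which turned, to *Klrg1* in NK cells. For these alternatives the share of all genes called was not computed, so the counts of pairs cannot be set against a background. The causes were not tested. Depth limits *Havcr2* in NK cells, where it was found in 40 cells at 2000 UMIs.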

Other observations

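Cells that met none of the 5 gates numbered 4152, 3777 and 2513. They include the 200, 100 and 7 B cells, and the rest belong to no comparison above. In them *Pdcd1* stood at 70.6, 51.2 and 82.9 CPM, *Ctla4* at 67.7, 76.7 and 96.2 and *Lag3* at 38.6, 43.5 and 76.4. *Cd160* stood at 35.005, 37.4 and 68.3, *Klrg1* at 9.19, 11.7 and 21.4 and *Havcr2* at 6.01, 13.8 and 11.9. For all receptors but *Havcr2* the KR+ library was the highest.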
